A study of Mus musculus with 12 samples.

Results

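The genes described here are 10 genes of the cardiac Z-disc and of the response of muscle to stretch: *Ankrd1*, *Ankrd2*, *Ankrd23*, *Csrp3*, *Xirp1*, *Xirp2*, *Fhl1*, *Fhl2*, *Nrap* and *Ldb3*. They were picked by name from the 54658 gene names of a read count table, and all 10 were found there. The table covers bulk RNA of the murine left atrium (LA), with 1 library per mouse from 6 iNICD mice and 6 littermate controls, on a mixed genetic background. iNICD mice carry amHC-rtTA, a transactivator driven by the cardiomyocyte promoter of α-myosin heavy chain, together with TetO-NICD, which yields the Notch1 intracellular domain (NICD) when doxycycline is present. The controls carry amHC-rtTA without TetO-NICD. Every mouse, 2 to 3 months old, ate doxycycline chow over 3 weeks with no washout, so the transactivator and the drug are common to both groups. The controls were 4 females and 2 males, the iNICD mice 3 of each sex. The comparison asks how the genes differ when Notch signaling is switched on in adult cardiomyocytes.

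The Z-disc is the border between neighbouring sarcomeres, where actin filaments and titin are anchored by α-actinin, and it also acts as a site at which cardiomyocytes sense mechanical load. Several proteins that sit there or bind the elastic part of titin can move to the nucleus, and their genes are well-known markers of stretch and hypertrophy in the heart. The muscle ankyrin repeat proteins (Ankrd1, Ankrd2 and Ankrd23) bind the N2A region of titin, LIM domain proteins (Csrp3, Fhl1, Fhl2, Ldb3 and Nrap) link structural and signaling proteins, and the Xin repeat proteins (Xirp1 and Xirp2) bind actin at the intercalated discs and Z-discs.

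Between 21555678 and 26902478 reads were counted per control library and between 21432632 and 27182038 per iNICD library (two-sided exact permutation test of the totals, p = 0.606, n = 6 per group). *Notch1*, which supplies the coding sequence of the transgene, had 2335 to 3311 counts in the controls and 71187 to 107667 in the iNICD libraries, and every library matched its label, although these counts hold endogenous and transgenic transcripts together. Control replicate 5 stood apart from the rest on the first principal component of all tested genes, at -77.4 against -20.2 to 7.98 in the other controls, and control replicate 2 was the control next to it at -20.2. The atrial markers *Myl7*, *Myl4*, *Sln* and *Nppa* together summed to 34235 to 44024 normalized CPM (CPM of the TMM-scaled library total) in the controls, whereas *Myl2*, the ventricular light chain, did not pass 3.22 normalized CPM in any library and *Irx4* was at 0 counts in all. All 4 of these atrial markers were lower in the iNICD LA, where they summed to 9269 to 16601 normalized CPM.

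Of the 10 genes, 9 passed the filter of more than 1 CPM in at least 6 libraries. When all 13541 tested genes were adjusted together (edgeR's quasi-likelihood test, Benjamini-Hochberg), 1 of the 9 was higher in the iNICD LA, *Fhl2*, and 0 were lower (0 also at an unadjusted p under 0.05). Among all tested genes 2.78% were higher and 1.34% were lower at the same threshold of 0.05. DESeq2 and the exact test of edgeR also called *Fhl2* and no other gene of the group, and at an unadjusted p under 0.05 it was again the only one. The median log2 fold change of the 9 genes was -0.29, against -0.01 over all tested genes, and without control replicate 5, when 5.9% of tested genes changed in either direction and 0 of the 9 passed, it was -0.01. The control and iNICD libraries overlapped for all 10 genes, whereas 3.83% of tested genes had groups that did not overlap. In bulk tissue, fewer cells of a type and less RNA per cell cannot be told apart.

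**Figure D1:**
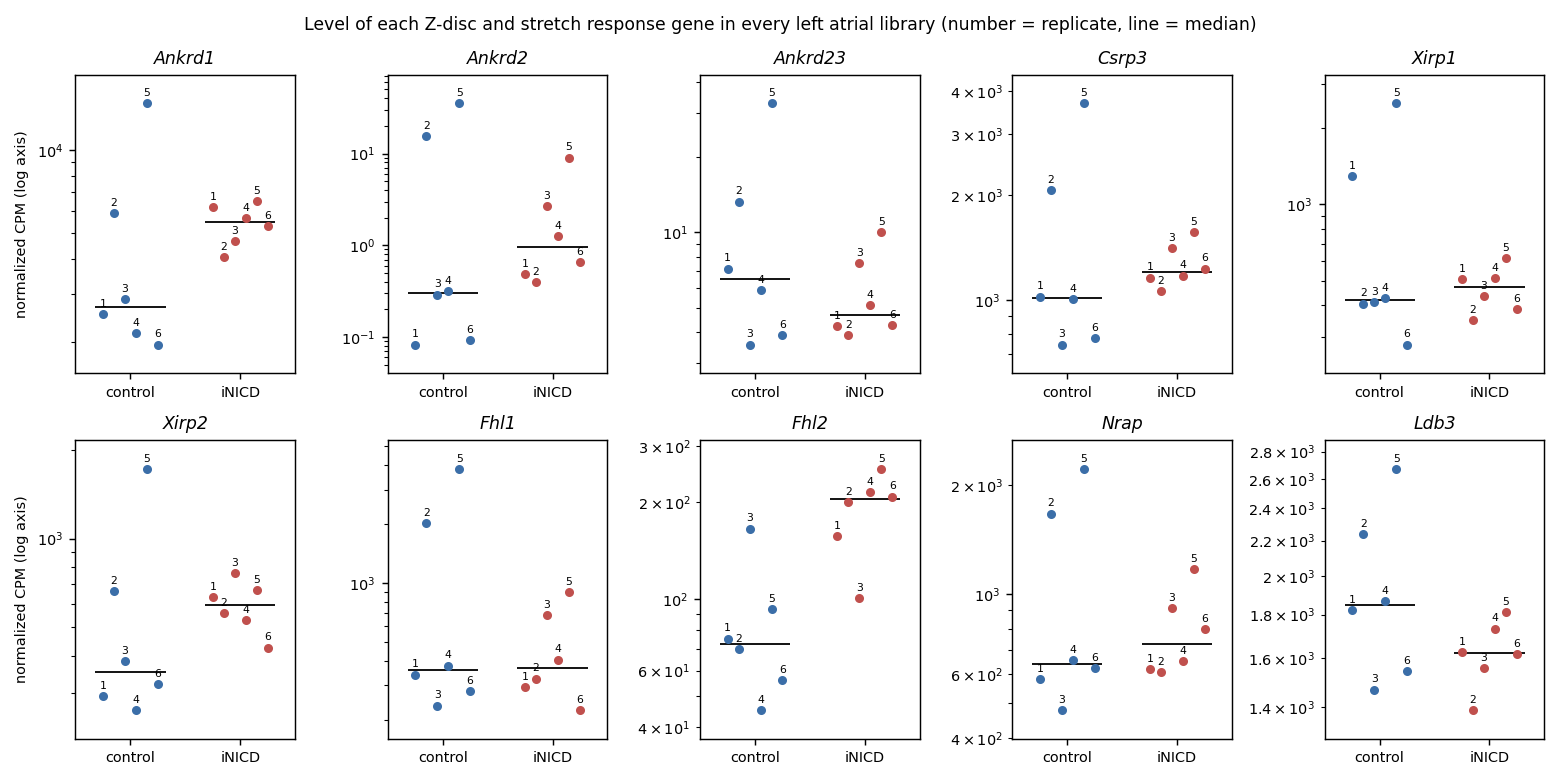
Normalized CPM (log axis, a scale of its own in each panel) of the 10 genes in the 6 control (blue) and 6 iNICD (red) libraries; the number at each point is the replicate and the line is the group median. Control replicate 5 is the highest of all 12 libraries in every panel but that of *Fhl2*, in which 4 iNICD libraries lie above all controls.

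*Fhl2* encodes a LIM-only protein that binds titin and serves as a cofactor of several transcription factors. Its gene spans 43123074 to 43196984 on chromosome 1 (GRCm38, mm10, the build of all positions given here). The controls ranged from 45.3 to 166 normalized CPM with a median of 72.7, and the iNICD libraries from 101 to 255 with a median of 205. Control replicate 3 was the control at 166, and iNICD replicates 1 and 3 lay below it at 157 and 101. The other 5 controls did not exceed 93.1, below every iNICD library. *Fhl2* rose from a mean of 84.3 ± 43.2 to one of 190 ± 53.6 normalized CPM (SD over the 6 mice of each group). Its log2 fold change was 1.17 (standard error 0.30, edgeR adjusted p = 0.0461, 95% interval 0.52 to 1.82). The call was close to the threshold. It was kept without control replicate 3 (adjusted p = 0.00529) or iNICD replicate 3 (0.0291) and was lost in each of the 10 other fits that left out 1 library (adjusted p from 0.051 to 0.0978), while the log2 fold change stayed between 1.04 and 1.48. With sex as a covariate the adjusted p was 0.0732.

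RefSeq (GRCm38.p6) lists more than 1 start site for *Fhl2*. The 250 bases before each of 2 starts are shown here because *Fhl2* was the gene that passed the test, and 1 of the 2 windows of *Fhl1* because this gene had the largest coefficient of variation between control libraries among the 9 tested of the 10. Capitals mark every match, on either strand, to 5 motifs. These are the CArG box bound by serum response factor (CCWWWWWWGG) and the MEF2 site (YTAWWWWTAR), where W is A or T, Y is C or T and R is A or G. The others are the TATA box letters TATAAA, the TEAD factor letters GGAATG and the letters TGGGAA, which are bound by RBPJ, the nuclear partner of NICD.
Fhl2, chr1:43196762-43197011, minus strand: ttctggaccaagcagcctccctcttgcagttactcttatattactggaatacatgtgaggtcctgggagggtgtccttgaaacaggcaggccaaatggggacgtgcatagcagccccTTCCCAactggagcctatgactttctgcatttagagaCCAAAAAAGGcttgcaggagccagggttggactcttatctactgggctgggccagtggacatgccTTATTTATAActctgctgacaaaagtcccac
Fhl2, chr1:43163962-43164211, minus strand: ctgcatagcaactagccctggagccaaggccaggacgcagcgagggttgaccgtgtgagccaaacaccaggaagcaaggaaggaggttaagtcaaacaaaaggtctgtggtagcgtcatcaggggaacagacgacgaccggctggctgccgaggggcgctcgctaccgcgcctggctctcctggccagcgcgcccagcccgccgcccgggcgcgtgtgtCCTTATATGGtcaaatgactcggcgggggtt
Fhl1, chrX:56779433-56779682, plus strand: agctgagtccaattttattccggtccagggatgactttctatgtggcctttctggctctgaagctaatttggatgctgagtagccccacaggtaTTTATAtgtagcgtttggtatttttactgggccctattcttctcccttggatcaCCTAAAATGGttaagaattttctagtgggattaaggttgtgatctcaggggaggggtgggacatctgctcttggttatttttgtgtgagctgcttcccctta
In the first *Fhl2* window the capitals are, in order, a TGGGAA match on the opposite strand (133 to 128 bases before the start), a CArG box (96 to 87) and a MEF2 site (31 to 22), which holds a TATAAA match on the opposite strand. The second *Fhl2* window holds a CArG box alone, 31 to 22 bases before its start. The *Fhl1* window shown holds a TATAAA match on the opposite strand and a CArG box at 102 to 93, and it was chosen of the 2 for its CArG box. The other *Fhl1* window, not shown, holds neither of these and has a TGGGAA match on the opposite strand at 112 to 107. RefSeq windows were found for 9 of the 10 genes, 14 windows in all. A CArG box was present in 5 of the 14, from *Fhl2*, *Fhl1* and *Ldb3*, whose overlapping windows share 1 box, and in 1.47% of all 32851 windows of the same length. A MEF2 site was present in 2 of the 14 (2.92% of all windows), TATAAA in 3 (12.4%), GGAATG in 2 (12.6%) and TGGGAA in 5 (21.6%). These matches are a description of the sequence and were not tested for binding.

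*Fhl1*, a LIM-only protein of the Z-disc and I-band, lies on chromosome X from 56731787 to 56793346. Its level ran from 236 to 3833 normalized CPM in the controls (median 359) and from 224 to 895 in the iNICD libraries (median 365). Control replicates 5 and 2, at 3833 and 2013, were the highest of the 12, and the other 4 controls lay between 236 and 377. The mean was 1180 ± 1469 for the controls and 471 ± 262 for the iNICD mice (SD, n = 6 per group). The difference did not pass (edgeR adjusted p = 0.358), at -1.33 ± 0.71 (SE) on the log2 scale with a 95% interval of -2.85 to 0.20, and without control replicate 5 it was -0.46 (adjusted p = 0.735). The medians of the groups nearly coincided, and the difference in means was within the spread of the controls.

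*Csrp3* encodes muscle LIM protein, a Z-disc and nuclear protein required for normal cardiac architecture, on chromosome 7 from 48830398 to 48848033. The controls ranged from 745 to 3678 normalized CPM (median 1016) and the iNICD libraries from 1059 to 1572 (median 1203). Control replicates 5 and 2 were again the highest, at 3678 and 2075. All 6 iNICD libraries lay above the other 4 controls, which ranged from 745 to 1023. Over all libraries the log2 fold change was -0.29 (standard error 0.36, edgeR adjusted p = 0.717), and it turned to 0.17 without control replicate 5 (adjusted p = 0.765).

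*Nrap* encodes nebulin-related anchoring protein, which takes part in myofibril assembly at the intercalated disc, and lies on chromosome 19 from 56320035 to 56390037. It had 479 to 2214 normalized CPM in the controls (median 641) and 608 to 1168 in the iNICD libraries (median 726). Control replicates 5 and 2 were at 2214 and 1666, and no other library passed 1168. Its log2 fold change was -0.39 (standard error 0.37, edgeR adjusted p = 0.633), or -0.01 without control replicate 5.

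*Ldb3* encodes Cypher, a PDZ and LIM domain protein that binds α-actinin, and lies on chromosome 14 from 34526603 to 34588682. It varied least of the 10 genes, from 1469 to 2673 normalized CPM in the controls (median 1846) and from 1391 to 1814 in the iNICD libraries (median 1622). All 6 iNICD libraries lay below the control median, but only iNICD replicate 2 lay below every control. The log2 fold change was -0.25 (standard error 0.14, edgeR adjusted p = 0.363, 95% interval -0.55 to 0.04), or -0.14 without control replicate 5 (adjusted p = 0.538).

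*Ankrd1* encodes the cardiac ankyrin repeat protein, a titin-binding protein and nuclear cofactor whose transcript is a common marker of cardiac load. It lies on chromosome 19 from 36111961 to 36120099. The controls ranged from 1964 to 14714 normalized CPM with a median of 2698, and the iNICD libraries from 4087 to 6495 with a median of 5458. Control replicate 5 was at 14714, above every other library, and control replicate 2 at 5879.6 lay among the iNICD libraries. The other 4 controls, from 1964 to 2869, were below all 6 iNICD libraries. With all 12 libraries the means were 5018 ± 4962 and 5389.9 ± 914 normalized CPM (SD, n = 6 per group). The corresponding log2 fold change was 0.10 (standard error 0.45, edgeR adjusted p = 0.931, 95% interval -0.88 to 1.08). Without control replicate 5 the control mean was 3079 ± 1603 (SD, n = 5) and the log2 fold change 0.81 with a standard error of 0.26. That value had an unadjusted edgeR p of 0.00898 but did not pass after adjustment (adjusted p = 0.0977). A single control library therefore decided the size of the difference in *Ankrd1*, and neither fit placed it among the changed genes.

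The window before the start of *Ankrd1* is shown because this gene was the most abundant of the group and its difference rested on 1 library. Its capitals mark a pair of GGAATG matches on the gene's own strand (210 to 205 and 123 to 118 bases before the start) and a pair of TGGGAA matches on the opposite strand (141 to 136 and 63 to 58).
Ankrd1, chr19:36119845-36120094, minus strand: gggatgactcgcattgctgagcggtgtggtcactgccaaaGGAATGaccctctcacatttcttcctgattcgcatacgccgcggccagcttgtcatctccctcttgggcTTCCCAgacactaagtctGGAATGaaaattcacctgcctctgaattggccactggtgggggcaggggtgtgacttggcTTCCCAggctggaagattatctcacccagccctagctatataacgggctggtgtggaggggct

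*Ankrd2*, the member of the family known from skeletal muscle, lies on chromosome 19 from 42036000 to 42045110 and did not pass the filter. It had 0.08 to 35.2 normalized CPM in the controls (median 0.30) and 0.40 to 9.03 in the iNICD libraries (median 0.95). Its reads came chiefly from control replicates 5 and 2, with 752 and 424 counts, and from iNICD replicate 5 with 216, whereas the other 4 controls had 2 to 8 counts. Where it was tested, it did not pass: with the filter of edgeR's filterByExpr its log2 fold change was -1.83 (adjusted p = 0.513). *Ankrd23*, a diabetes-related ankyrin repeat protein that also binds titin, lies on chromosome 1 from 36530188 to 36536883. It had 3.56 to 32.8 normalized CPM in the controls (median 6.52) and 3.88 to 10.03 in the iNICD libraries (median 4.69). Control replicates 5 and 2 were the highest of the 12 libraries, at 32.8 and 13.3. The log2 fold change was -0.92 (standard error 0.52, edgeR adjusted p = 0.383), or -0.21 without control replicate 5.

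*Xirp2*, a Xin repeat protein of the intercalated disc also called myomaxin, lies on chromosome 2 from 67446002 to 67526614. Its controls ranged from 263 to 1723 normalized CPM (median 353) and its iNICD libraries from 427 to 764 (median 596). Control replicate 5 was at 1723 and control replicate 2 at 662, and the other 4 controls, at 263 to 385.5, lay below every iNICD library. Its log2 fold change was -0.03 (standard error 0.42, edgeR adjusted p = 0.984). Without control replicate 5 it was 0.63 with a standard error of 0.23 and did not pass (adjusted p = 0.142), a turn in direction like that of *Csrp3*.

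*Xirp1*, its paralog, lies on chromosome 9 from 120013755 to 120023598 and, like *Fhl2*, differed from the rest of the genes in the controls that stood out. It had 279.5 to 2504 normalized CPM in the controls (median 418) and 348 to 613 in the iNICD libraries (median 471). Control replicates 5 and 1, at 2504 and 1291, were above all other libraries, and control replicate 2 at 406 was within the rest. The log2 fold change was -0.92 (standard error 0.49, edgeR adjusted p = 0.351), or -0.27 without control replicate 5 (adjusted p = 0.739). *Cx3cr1* overlaps *Xirp1* on the same strand and had 1268 counts over all 12 libraries together, against 6040 in the lowest single library for *Xirp1*.

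**Figure D2:**
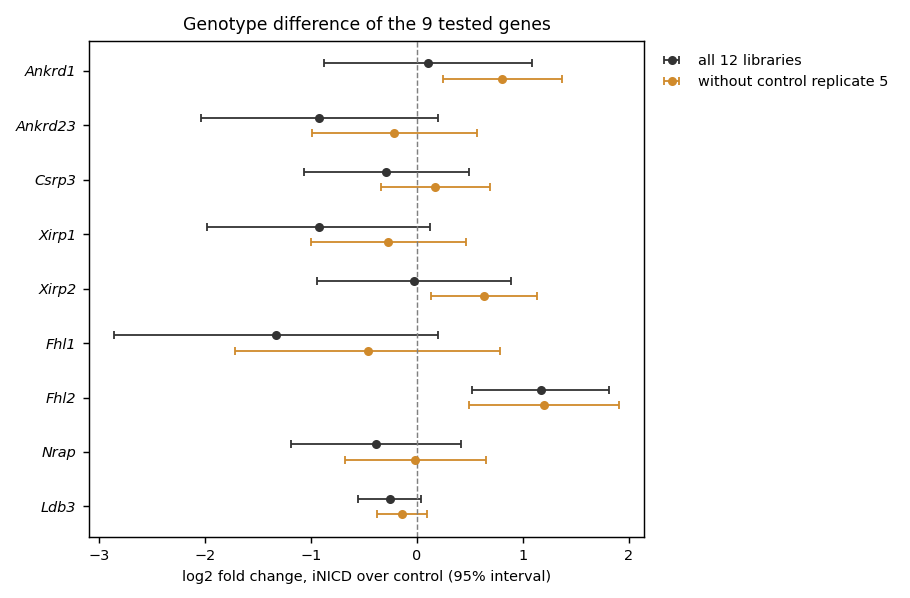
Log2 fold change, iNICD over control, with its 95% interval for the 9 tested genes, with all 12 libraries (dark) and without control replicate 5 (orange). *Fhl2* stays near 1.2 in both, *Ankrd1* moves from 0.10 to 0.81 and *Xirp2* from -0.03 to 0.63.

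The libraries in which these genes were high were largely shared. Control replicate 5 was the highest of all 12 libraries for 9 of the 10 genes, *Fhl2* being the exception. Control replicate 2 was the second highest control for 8, all but *Fhl2* and *Xirp1*. Within the iNICD group replicate 5 was the highest for 9 of 10, *Xirp2* being led by replicate 3. Relative to the median of the other controls, control replicate 5 was 11.3-fold higher for *Fhl1*, 6.11-fold for *Xirp1*, 5.82-fold for *Ankrd1*, 5.57-fold for *Ankrd23* and 5.36-fold for *Xirp2*. The ratio was 3.65 for *Csrp3* and 3.54 for *Nrap*, and it was under 2 for *Ldb3* (1.47) and *Fhl2* (1.33). Over all tested genes the median of this ratio was 0.981, and 5.21% of them were at least 2-fold higher in that library, against 7 of the 9 tested genes described here. These values describe the libraries, and the 10 genes are not independent of each other.

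**Figure D3:**
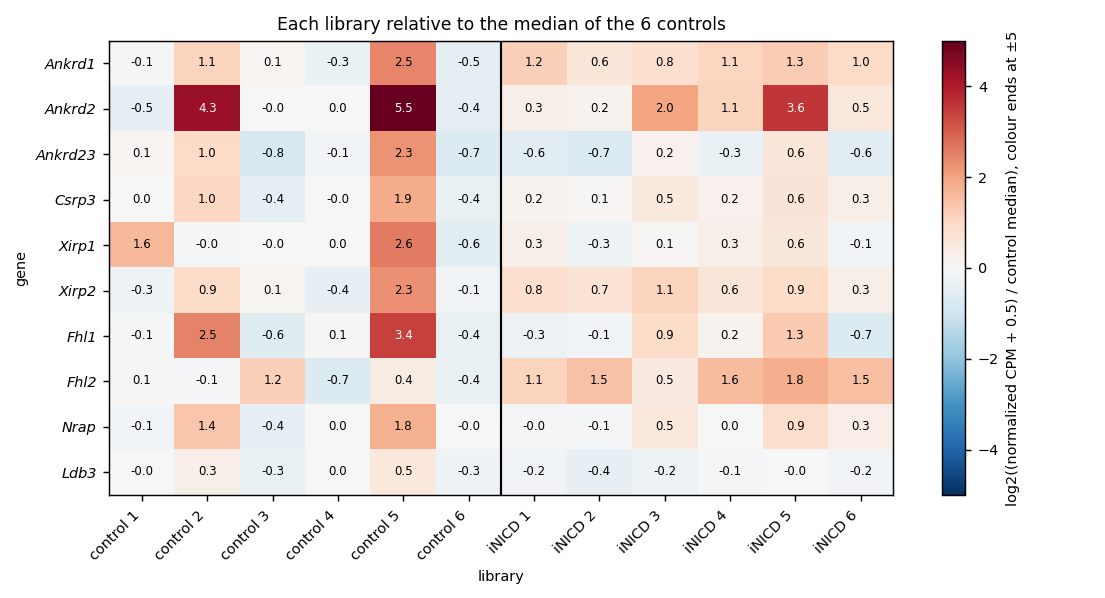
Log2 of the normalized CPM plus 0.5, relative to the median of the 6 controls, for the 10 genes (vertical) in each library (horizontal); red is above and blue below the control median, with the colour scale ending at 5. Control replicates 5 and 2 and iNICD replicates 5 and 3 share high values of *Ankrd2*, *Fhl1* and *Nrap*, and *Fhl2* follows another order.

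Markers of other cell types were compared in the same libraries, and the single markers named here were picked after their values were seen. *Irx4* and *Myl2* were at or near 0 throughout, as were the skeletal myosin genes *Myh1* and *Myh4*, which did not exceed 0.455 and 0.22 normalized CPM. *Myh7*, which the atrium also expresses, was at 1064 in control replicate 5 and 17.8 in control replicate 2, within the 17.8 to 2155 of all controls. The 4 ventricular markers summed to 21.2 to 2158 in the controls and 17.5 to 2231 in the iNICD libraries, and the 8 skeletal markers to 641 to 948 and 322 to 872. Of the 4 skeletal markers tested, *Tnni2* was higher with NICD at a low level (0.414 to 2.81 normalized CPM in the controls against 2.38 to 5.20, edgeR adjusted p = 0.0312). *Ckm*, the creatine kinase that heart muscle also expresses and that made up nearly all of the skeletal sum, had an unadjusted p under 0.05 and did not pass (774 ± 116 normalized CPM in the controls and 541 ± 212 in the iNICD libraries, SD, edgeR adjusted p = 0.261). The 6 cardiomyocyte markers summed to 56299 to 69644.5 in the controls and 49400.5 to 58195 in the iNICD libraries, and *Tnnt2* alone among them was called, lower with NICD. *Cnn1*, the smooth muscle calponin, was high in the same libraries, with 236 and 130 normalized CPM in control replicates 5 and 2 and 133 in iNICD replicate 5, against 4.14 to 24.6 in the other 4 controls. *Tagln* (60.9 and 32.3 in control replicates 5 and 2 against 10.6 to 14.7 in the other 4 controls) and *Acta2* (56.0 and 60.2 against 22.8 to 38.8) were also higher in both. *Myh11* was higher in control replicate 5 alone (40.4 and 24.4 against 20.7 to 31.1). *Smtn*, smoothelin, the most abundant of the 5 smooth muscle markers in most libraries, went the other way, at 176 and 236 in control replicates 5 and 2 against 324 to 379 in the other 4 controls. *Actc1*, cardiac α-actin, was at 21932 and 15142 normalized CPM in control replicates 5 and 2 against 7484 to 8946 in the other 4, and *Pln*, phospholamban, was lowest of the controls in these libraries, at 381 and 628 against 1149 to 1313. The 5 smooth muscle markers together summed to 569 in control replicate 5, 483 in control replicate 2 and 393 to 483 in the controls other than replicate 5. Of these 5 markers, 0 passed edgeR's quasi-likelihood test between genotypes (0 at an unadjusted p under 0.05, and 0 by DESeq2), and their sums were 393 to 569 in the controls and 419 to 612 in the iNICD libraries. Of the 5 erythroid markers, 0 passed in edgeR's test, but all 5 were lower at an unadjusted p under 0.05 and 3 were called by DESeq2, with sums of 59.4 to 247 in the controls and 27.1 to 138 in the iNICD libraries. Markers of fibroblasts (6), endothelium (5), epicardium (4) and macrophages (5) had 0 calls with edgeR and 0 with DESeq2, and 1 of them, of the endothelium, had an unadjusted p under 0.05. Their sums in control and iNICD libraries were 2561 to 3707 and 2652 to 4366 for fibroblasts, 645 to 860 and 599 to 733 for endothelium, 196 to 258 and 124 to 239 for epicardium, and 205 to 267 and 201 to 310 for macrophages. The part of these markers in the levels of the 10 genes was not tested.

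The spread between mice relative to the mean was wider in the controls than in the iNICD group for each of the 10 genes. The coefficient of variation of the 9 tested genes had a median of 93.0% in the controls and 20.8% in the iNICD libraries, against 16.5% and 11.7% over all tested genes. Without control replicate 5 the control median was 58.3%, with 11.8% over all tested genes, and the control value was still the larger for each of the 9. A larger control than iNICD coefficient was found for 68.6% of all tested genes with control replicate 5 and for 49.0% without it. *Fhl1* had the largest control value of the 9 at 124% (118% without control replicate 5) and *Ldb3* the smallest at 23.4% (17.1% without it). The difference in spread itself was not tested.

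Levels between genes were compared per kilobase of the gene length in the deposited table. In the control libraries the median normalized CPM per kilobase was 1528 for *Ankrd1*, 380 for *Csrp3*, 302 for *Ldb3*, 116 for *Nrap*, 96.6 for *Fhl1*, 71.7 for *Xirp1*, 38.3 for *Fhl2*, 29.5 for *Xirp2*, 2.42 for *Ankrd23* and 0.28 for *Ankrd2*. In the iNICD libraries the order was the same at both ends, with 3092 for *Ankrd1* and 0.87 for *Ankrd2*. *Fhl2*, at 108, lay above *Fhl1* at 98.3 and *Xirp1* at 80.7 there. In the controls the range of each gene overlapped that of the next in the order, except between *Xirp2* and *Ankrd23*. In the iNICD libraries *Ankrd1*, *Csrp3*, *Ldb3* and *Nrap* followed each other without overlap, *Nrap*, *Fhl2*, *Fhl1*, *Xirp1* and *Xirp2* each overlapped the next, and *Ankrd23* and *Ankrd2* lay apart below them.

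The difference between genotypes was also set side by side in the sexes, by a sex by genotype term in edgeR's quasi-likelihood test. In that test 0 of the 13541 genes had an interaction after adjustment (lowest edgeR adjusted p for the genes described here, 0.916), and *Xirp2* alone among the genes described here had an unadjusted p under 0.05 in edgeR's test. Its log2 fold change was 0.70 in females and -0.93 in males. That of *Ankrd1* was 0.57 in females and -0.54 in males, and that of *Fhl2* was 0.78 in females and 1.59 in males. Control replicate 5 is 1 of only 2 male controls, so sex and this library cannot be told apart in the male comparison.

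The genes whose levels followed *Fhl2* most closely across the 12 libraries, as deviations from each group's mean on the log2 scale, were *Homer2* (Pearson r = 0.924, Spearman rho = 0.881), *Abca5* (0.853 and 0.727) and *Opa3* (0.830 and 0.874). Leaving out the 2 libraries in which *Fhl2* deviated most, r was 0.848 for *Homer2*, 0.644 for *Abca5* and 0.668 for *Opa3*. These are the 3 highest among all tested genes, and the libraries share depth and handling, so the values are a description. Between genotypes *Homer2* did not pass (log2 fold change 0.43 ± 0.12 SE, edgeR adjusted p = 0.0716).

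Other genes of the Z-disc and its surroundings were described by counts, beside the 4.12% of all tested genes that changed in either direction. Of 28 further Z-disc genes, among them *Actn2*, *Ttn*, *Des*, *Flnc* and *Cryab*, 26 were tested and 0 passed edgeR's quasi-likelihood test, as with DESeq2, while 5 had an unadjusted p under 0.05, all 5 lower. Their median log2 fold change was -0.27, with 23 of 26 below 0, and it was -0.07 without control replicate 5. Of 16 related LIM genes 15 were tested and 0 passed in edgeR's test, with a median of -0.15, or -0.00286 without control replicate 5 (4 at an unadjusted p under 0.05, and 3 called by DESeq2). *Crip3*, named after its values were seen, passed without control replicate 5, at a log2 fold change of -1.59 (edgeR adjusted p = 0.00504, against 0.05003 with all libraries). Of 9 genes of titin-linked protein turnover, 0 passed in edgeR's test, with a median of -0.14, or -0.04 without control replicate 5 (1 at an unadjusted p under 0.05, and 1 called by DESeq2).

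Of 16 costamere genes, which couple Z-discs to the cell membrane and matrix, 2 rose and 1 fell, with a median log2 fold change of -0.05 that turned to 0.07 without control replicate 5. *Itga7*, the laminin-binding integrin α7, rose from a mean of 274 ± 28.4 to 432 ± 54.9 normalized CPM (SD over 6 mice each, log2 fold change 0.66 ± 0.10 SE, edgeR adjusted p = 0.0016). *Ank3*, ankyrin-G, rose from 167 ± 13.7 to 211 ± 17.7 (log2 fold change 0.34, edgeR adjusted p = 0.02). *Dag1*, dystroglycan, fell from 901 ± 41.6 to 756 ± 44.6 (log2 fold change -0.25, edgeR adjusted p = 0.0331). For none of the 3 did the groups overlap, and all 3 were also called without control replicate 5. The count of called costamere genes was 1 without control replicate 1, iNICD replicate 1 or iNICD replicate 4, and 2 to 4 without any other library. *Ank3* was lost in those 3 fits (adjusted p from 0.051 to 0.0515). *Dag1* lost its call in 15 of 24 alternatives, among them edgeR's exact test (adjusted p = 0.0517), and kept it only without control replicate 5, control replicate 6 or iNICD replicate 3 among the fits that left out 1 library.

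Of 10 genes of the load response, 5 fell and 0 rose, with a median log2 fold change of -1.92. In control replicate 5, 8 of the 10 were at least 2-fold above the median of the other controls (median ratio 3.65), against 5.21% of all tested genes. Without that library 4 fell and the median log2 fold change was -1.59. *Nppa*, atrial natriuretic peptide, *Ctgf* and *Cyr61*, matricellular proteins, and *Fos*, an immediate early gene, had log2 fold changes of -2.33, -2.49, -2.72 and -3.10 (edgeR adjusted p = 3.39e-04, 0.0107, 0.0143 and 0.0283). *Nppb*, brain natriuretic peptide and the fifth, named after its values were seen, had -3.36 (adjusted p = 0.0397) and lost its call without control replicate 5 (-2.30, adjusted p = 0.0505), a library in which it was 9.36-fold above the median of the other controls. The count of called load response genes was 3 to 6 when 1 library was left out, and it was 3 without iNICD replicate 1, 2, 3, 4 or 6. *Fos* ranged from 11.2 to 285 normalized CPM in the controls, with replicate 4 at 285 and no other above 87.0, and without that library its log2 fold change was -2.06 (edgeR adjusted p = 0.0387). *Fos* lost its call in 10 of 24 alternatives, among them each fit that left out 1 iNICD library (adjusted p from 0.0528 to 0.0722). *Cyr61* lost its call in 4 of 24: with the replicate block by title or description numbers (edgeR adjusted p = 0.06 and 0.0655), in females alone and in males alone.

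A further list held 16 upstream transcriptional regulators, and their action on the genes described here was not tested. Of these 16, 1 rose and 0 fell, with a median log2 fold change of 0.14 and 13 of 16 above 0 (median 0.12 without control replicate 5). At an unadjusted p under 0.05 in edgeR's test 8 were higher and 1 was lower, and DESeq2 called 2. *Tead1*, a TEAD factor that binds GGAATG, rose from a mean of 256 ± 30.2 to 349.7 ± 34.5 normalized CPM (SD over 6 mice each, log2 fold change 0.45 ± 0.09 SE, edgeR adjusted p = 0.0131), with every iNICD library above every control. *Srf*, which binds the CArG box and is named after its values were seen, had 173 ± 77.2 normalized CPM in the controls against 95.3 ± 17.3 with NICD (log2 fold change -0.86, edgeR adjusted p = 0.0629). Without control replicate 5 its log2 fold change was -0.59 and it passed (adjusted p = 0.0401), which made the count 2. Without control replicate 6 the count was 3.

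**Figure D4:**
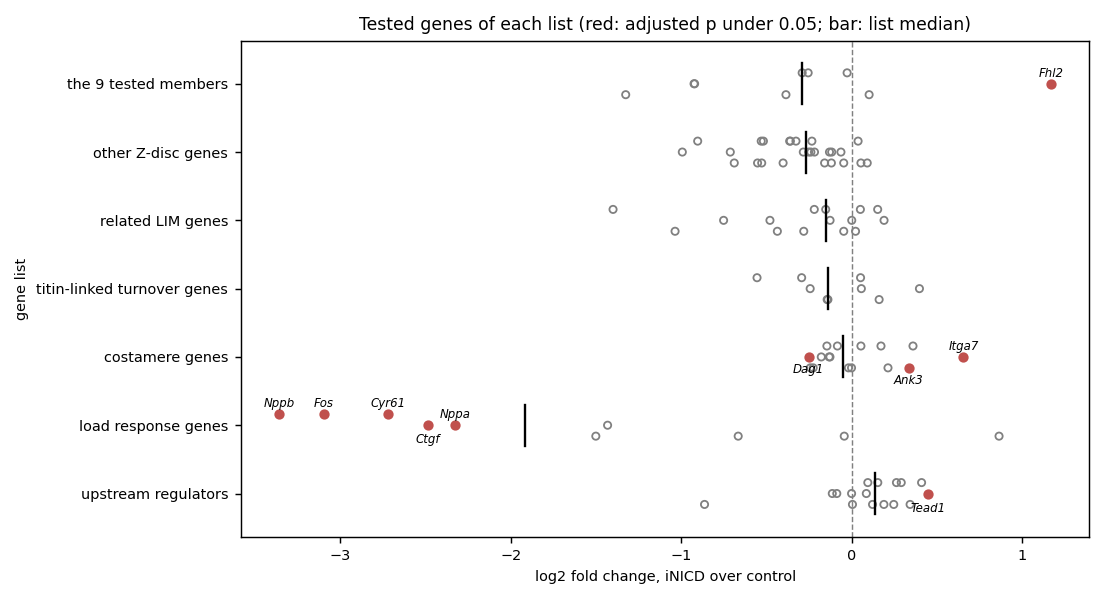
Log2 fold change, iNICD over control, of each tested gene (circles) by list, with genes at an adjusted p under 0.05 filled in red and named, and the bar at the list median. The load response genes extend furthest below 0, to -3.36, and the point furthest above 0 is *Fhl2*, at 1.17.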

How the data were processed

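RNA of 12 left atria was depleted of ribosomal RNA and sequenced as stranded single-end 50-base reads. The authors deposited 1 table of raw read counts per gene, with a gene length column in bases (a value of the other kind, also deposited). Their methods and notes name TopHat2 with HTSeq and STAR with featureCounts on mm10 (STAR 2.4.2a in the notes, another version in the methods), and which route made the table is not given in the sources used here. The table holds 37 mitochondrial genes and no summary row.

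Counts were scaled by TMM in edgeR 4.0.16 (R 4.3.3), and the 13541 genes above 1 CPM in 6 or more libraries entered glmQLFit and glmQLFTest, fitted over all 12 libraries. P-values were adjusted by Benjamini-Hochberg, threshold 0.05. Errors of fold changes are the absolute log2 fold change divided by the square root of F. The study's methods name DESeq2 for the left atrial libraries, and edgeR's exact test where both atria were set side by side. DESeq2 1.42.0 was run here as an alternative, as were edgeR's exact test, other scalings and filters, sex as covariate, each sex alone, a replicate block and leaving out each library. Scripts were tested on simulated counts. Exact permutation tests used scipy 1.17.1.

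The 10 genes, the lists and the tests were chosen with earlier results of these data known. Named genes were the 10 members, up to 4 called genes each way per list with the lowest adjusted p, the 3 genes most correlated with a called member, and *Notch1*. *Nppb*, *Crip3*, *Srf*, single cell type markers and the genes of the closing section were named after their values were seen. Leaving control replicate 5 out of the spread of the controls was added after seeing the data. Each library is 1 mouse, and no 2 libraries of a group were near identical (lowest chi-square per gene 14.2). Deviations of same-numbered control and iNICD libraries from their group means correlated at -0.153 to 0.372, over 0.1 in 4 of 6 pairs. Since not every pair was over 0.1 and the labels tie no number to a litter or day, the numbers were not taken as pairs. Positions are from GENCODE M21, promoter windows from RefSeq.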

Additional observations from a re-analysis of the deposited data

Results flagged for a closer look

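Dixon's 95% criterion for 6 values was applied to the 22 groups of 6 libraries that could be tested. In 4 of them a library stood farther from its nearest neighbour than the criterion allows. Chance gives about 1.1 (1 in 20) only for independent groups of normally distributed values. The groups here share libraries and the genes are not independent, so the 4 cannot be measured against that number. Control replicate 5 was the library in 3 of the 4. *Ankrd1* was at 14714 normalized CPM there, a gap of 0.693 of the control range. *Xirp2* was at 1723 (0.727) and *Ankrd23* at 32.8 (0.668). In the iNICD group, *Ankrd2* stood out in replicate 5, at 9.03 normalized CPM (0.737), a library with 216 counts of this gene. The cause of these high values was not tested.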

How the results depend on the processing

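The call of *Fhl2* was kept under DESeq2 (adjusted p = 0.00301), edgeR's exact test (0.00394), RLE and upper quartile scaling, both other filters and without mitochondrial genes. With sex as covariate, with a replicate block by title or description numbers, in females alone and in males alone, 0 of the 10 genes were higher. *Fhl2* then had log2 fold changes of 1.11, 1.28, 1.27, 0.78 and 1.59 (adjusted p = 0.0732, 0.103, 0.125, 0.367 and 0.312). Leaving out 1 library, 0 to 1 of the genes were higher and 0 to 0 lower. None of the other 9 was called in any alternative. Not every pair of same-numbered libraries deviated together, and 3 of 6 controls correlated best with the iNICD library of their own number. This is a hint of pairing from the data that is not in the design. Why calls were lost under the block was not tested. The direction of *Xirp2* turned to 0.0299 with sex as covariate, 0.34 and 0.36 with the replicate block by title and description numbers, and 0.70 in females (-0.18 to 0.63 without 1 library). That of *Ankrd1* turned to -0.54 in males (-0.0627 to 0.81 without 1 library), and that of *Csrp3* ran from -0.43 to 0.17.

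Over all tested genes, 377 were higher and 181 lower, against 687 and 437 with DESeq2, 279 lower with the exact test, and 8 and 0 in males. Leaving out 1 library gave 273 to 495 higher and 92 to 304 lower. Related LIM genes changed numbered 3 with the exact test and DESeq2, 2 in females, and 1 with RLE scaling, no filter, filterByExpr, sex as covariate or the replicate block by title numbers (0 to 1 without 1 library). For other Z-disc genes the count was 1 with sex as covariate (0 to 0 without 1 library), and for titin-linked turnover genes 1 with DESeq2 or sex as covariate (0 to 0). Costamere genes changed numbered 1 with the replicate block by title numbers and in females and 0 in males (1 to 4 without 1 library). The load response count was 3 and 2 with the replicate block by title and description numbers, 2 in females and 0 in males (3 to 6). That of upstream regulators was 2 with the exact test, DESeq2, sex as covariate and in females, 3 with the replicate block by title numbers and 0 in males (1 to 3). The causes of these changes were not tested, but fits by sex hold fewer libraries.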

Other observations

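Other Z-disc genes were also high in the control libraries that led the 10 genes, and they are given here as values. Of the 26 tested, 12 were at least 2-fold higher in control replicate 5 than the median of the other controls, against 5.21% of all tested genes. *Flnc*, the muscle filamin, was 8.27-fold higher, *Lmcd1*, a LIM and cysteine-rich domain protein, 7.67-fold, *Des*, desmin, 4.21-fold, *Pdlim3*, an actinin-associated LIM protein, 4.08-fold and *Synpo2l* 3.98-fold. In control replicate 2, against the median of control replicates 1, 3, 4 and 6, *Flnc* was 3.50-fold, *Pdlim3* 2.70-fold and *Des* 2.05-fold higher. *Tcap*, the titin cap telethonin, was on the other side, at 0.258 of the median of the other controls in control replicate 5 and, in control replicate 2, at 0.481 of the median of control replicates 1, 3, 4 and 6. *Cmya5*, myospryn, was at 0.604 of the median of the other controls in control replicate 5. These genes were chosen after their values were seen.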
